A study of Mus musculus with 57 samples.

Results

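The genes described here are 10 G-protein-coupled receptors through which myeloid cells sense chemoattractants and lipid mediators: Fpr1, Fpr2, C5ar1, C5ar2, C3ar1, Cmklr1, Ptafr, Gpr84, Gpr183 and S1pr1. They were taken by symbol from 2 tables of read counts, of 53278 genes in an LPS experiment and 50565 genes in a sex experiment, and all 10 were found in both. RNA came from CD11b-positive cells of mouse brain, labelled microglia, of wild-type mice (WT) and littermates deficient in P2RY12 (KO), a nucleotide receptor of resting microglia. The series addresses how P2RY12 bears on microglial metabolic and activation states.

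The LPS experiment had 4 groups: WT ns, WT LPS, KO ns and KO LPS. LPS is bacterial lipopolysaccharide, and per the labels mice received 1 mg/kg by intraperitoneal injection. Nothing in the labels spells out ns, the time after injection, the sex or age of these mice, or the knockout allele. Below, resting and rest stand for ns and imply nothing more about those mice. The sex experiment compared adult male WT (4 animals), male KO (5), female WT (4) and female KO (5), with no treatment in their group labels, although the protocol text on those samples also names the LPS injection. Since all cells were gathered by CD11b, which neutrophils, monocytes and border-associated macrophages also carry, none of the groups is a pure microglial sample by design.

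Formyl peptide receptors respond to peptides of bacteria and of mitochondria, anaphylatoxin receptors to fragments split from complement proteins, and the chemerin receptor to a processed adipokine. The lipid receptors read platelet-activating factor, medium-chain fatty acids, oxysterols and sphingosine 1-phosphate. Most of them couple to inhibitory G proteins and steer the movement, phagocytosis and secretion of myeloid cells, and several are used as markers of microglial state.

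Levels are in CPM, counts scaled to a common library total after TMM normalization, which sets the bulk of genes equal between libraries. Libraries of the LPS experiment held 15.9 to 168.4 M counts (M for mega, median 24.7 M) and those of the sex experiment 58.5 to 318.5 M (median 92.0 M). All 10 receptors passed the filter on low counts in both tables, and the lowest count of any of them in a library was 44, for Fpr1 in a KO ns library. P2ry12, the targeted gene, was at 3545 to 5387 CPM in WT ns against 580 to 1150 in KO ns, and at 408 to 1026 in WT LPS against 85.7 to 144 in KO LPS. In the sex experiment it was at 2910 to 5920 CPM in WT and 310 to 532 in KO animals. Markers of microglia summed to 16422 CPM or more in every library. Those of neutrophils summed to 295 to 47315 CPM, of monocytes to 52.4 to 3447 and of border-associated macrophages to 150 to 1159. Those of astrocytes and neurons summed to at most 114 and 18.7 CPM.

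Libraries of 2 kinds stood apart. In the WT groups, the 4 libraries numbered 2 in their names (WT ns 1, WT ns 5, WT LPS 1 and WT LPS 6) went against their labels, with P2ry12 at 487 and 885 CPM under the WT ns label and at 4474 and 10922 under the WT LPS label. They were kept out of the fit and are given separately, by their labels. A further 4 libraries (WT LPS 7, KO ns 5, KO ns 6 and KO LPS 5) and 2 of those numbered 2 had 2.69% to 8.55% mitochondrial counts, against 0.79% to 1.81% in the rest. Their median rank correlation with the other libraries was 0.58 to 0.75, against 0.86 to 0.91. Results are given with these 4 libraries and, where it matters, without them. WT LPS 8 and WT LPS 9 were nearly as alike as sampling noise allows and were counted as 1 sample. The fitted libraries numbered 6 in WT ns, 6 in WT LPS, 8 in KO ns and 8 in KO LPS. Nothing in the labels says that replicates are separate animals in the LPS experiment, so its p-values measure the spread between these libraries.

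The stretch before the start site is shown for Gpr84, C5ar1, C3ar1 and Fpr1, the 4 receptors that the test given below called higher under LPS in both genotypes. Each window runs from 250 bases before to 50 bases after the start site, 5′ to 3′ (RefSeq, GRCm38.p6), and capitals mark a match to the AP-1 motif.
Gpr84, chr15:103310389-103310688, minus strand: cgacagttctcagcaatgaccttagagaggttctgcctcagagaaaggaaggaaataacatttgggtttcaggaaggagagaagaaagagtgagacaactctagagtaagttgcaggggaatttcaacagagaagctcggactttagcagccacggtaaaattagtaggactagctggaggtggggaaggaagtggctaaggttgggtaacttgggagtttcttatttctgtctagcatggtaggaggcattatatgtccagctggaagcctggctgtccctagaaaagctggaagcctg
C5ar1, chr7:16259289-16259588, minus strand: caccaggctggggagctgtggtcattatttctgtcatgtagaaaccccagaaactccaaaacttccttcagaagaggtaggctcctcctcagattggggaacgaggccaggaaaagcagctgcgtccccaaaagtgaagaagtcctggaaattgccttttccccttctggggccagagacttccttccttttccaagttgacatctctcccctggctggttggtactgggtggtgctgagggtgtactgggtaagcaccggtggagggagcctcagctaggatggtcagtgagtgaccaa
C3ar1, chr6:122856108-122856407, minus strand: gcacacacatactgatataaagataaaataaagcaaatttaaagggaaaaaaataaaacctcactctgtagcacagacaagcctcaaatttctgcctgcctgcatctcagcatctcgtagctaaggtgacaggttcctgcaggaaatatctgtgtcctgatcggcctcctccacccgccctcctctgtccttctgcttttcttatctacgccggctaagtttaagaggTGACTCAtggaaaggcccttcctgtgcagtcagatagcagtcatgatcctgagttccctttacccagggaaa
Fpr1, chr17:17883890-17884189, minus strand: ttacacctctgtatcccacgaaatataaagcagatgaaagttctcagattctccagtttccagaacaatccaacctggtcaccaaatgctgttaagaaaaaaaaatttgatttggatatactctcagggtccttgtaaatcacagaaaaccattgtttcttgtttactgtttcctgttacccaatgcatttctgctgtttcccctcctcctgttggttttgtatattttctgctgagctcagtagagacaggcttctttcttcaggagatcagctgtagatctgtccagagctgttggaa
Windows were present for 9 of the 10 receptors (10 windows, C5ar2 having 2) and were searched on both strands for the kappa B consensus of NF-kappa B, for GAGGAAGT, a site of the myeloid factor PU.1, and for TGANTCA, the AP-1 site. No member window held the kappa B consensus, which 8.5% of 32851 windows of this length held, or GAGGAAGT, which 3.2% held. The C3ar1 window held 1 AP-1 match, TGACTCA, from 22 to 16 bases before the start, and 7.8% of all windows held one. No match says only that these letters were not in these windows.

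In resting WT cells the receptors fell into a group of readily detected genes and a pair at the edge of it. Per kilobase of exon, the median over 6 WT ns libraries was 75.6 CPM for Cmklr1, 65.5 for C3ar1, 61.3 for Gpr84, 58.5 for Ptafr, 55.1 for Gpr183, 38.5 for C5ar1, 34.0 for C5ar2, 20.7 for S1pr1, 9.28 for Fpr2 and 6.22 for Fpr1. Neighbours in this order overlapped in range, except C5ar2 and S1pr1. In KO ns the same 5 genes led in the same order, and the formyl peptide receptors were again last (4.84 for Fpr2, 3.87 for Fpr1). Under LPS the order changed at both ends. Gpr84 was first, at a median of 644 CPM per kilobase in WT LPS and 493 in KO LPS, and S1pr1 was last, at 1.23 and 2.50, below the range of every other receptor.

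**Figure D1:**
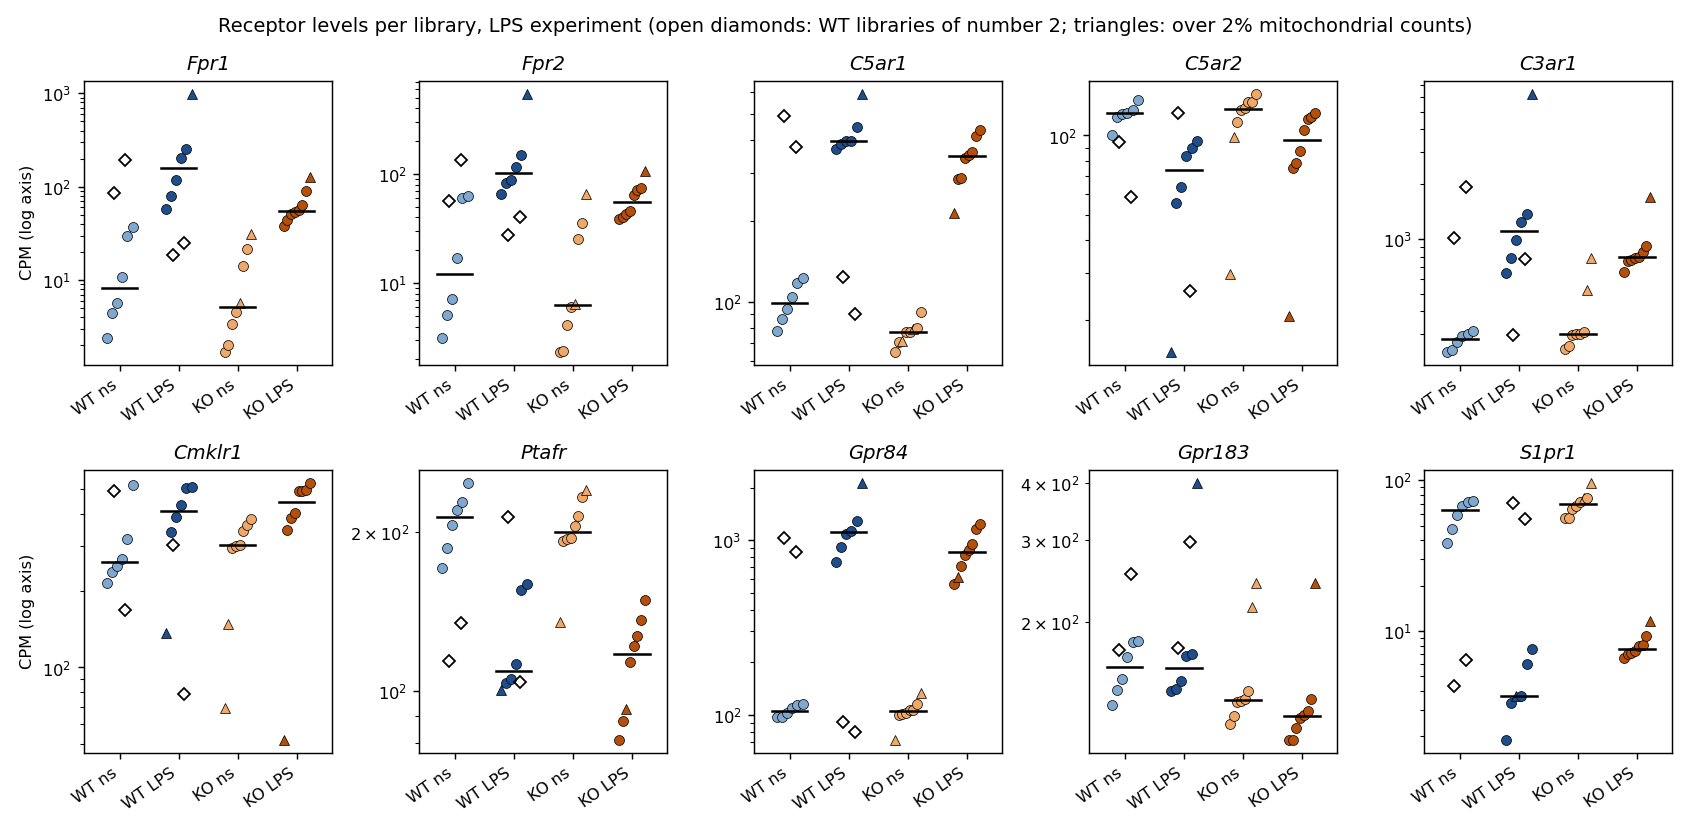
Levels of the 10 receptors in each library of the LPS experiment, in CPM on log axes, with the group median as a bar. Filled points are fitted libraries, triangles those over 2% mitochondrial counts, and open diamonds the WT libraries numbered 2, which for Gpr84 and S1pr1 lie in or near the range of the opposite treatment.

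LPS raised 4 and lowered 2 of the 10 receptors in KO cells, and raised 5 and lowered 2 in WT cells (edgeR's quasi-likelihood test, Benjamini-Hochberg over 16075 genes, called at an adjusted p under 0.05). Gpr84, C5ar1, C3ar1 and Fpr1 rose in both genotypes, Fpr2 passed the test in WT, and S1pr1 and Ptafr fell in both. As a background, 13.7% of all genes tested rose and 15.3% fell in KO, and 15.4% rose and 15.6% fell in WT. The median log2 change over the 10 receptors was 0.91 in KO and 1.23 in WT, beside -0.01 over all genes in each.

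Gpr84, a receptor for medium-chain fatty acids that myeloid cells induce in inflammation, had the largest of the increases in KO. Its level was 71.4, 105 and 134 CPM (lowest, median, highest) in KO ns and 560, 850 and 1244 in KO LPS. In WT it was 96.5, 106 and 116 in WT ns and 755, 1111 and 2136 in WT LPS. No LPS library came near a resting one in either genotype. The log2 change was 3.05 ± 0.20 (SE, adjusted p = 1.43e-11), or 8.28-fold, in KO and 3.53 ± 0.24 (adjusted p = 5.32e-11), or 11.5-fold, in WT.

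C5ar1, the signalling receptor for the complement fragment C5a, rose by nearly the same amount in both genotypes. It was at 65.2, 77.1 and 91.8 CPM in KO ns and 213, 347 and 435 in KO LPS. In WT it was at 77.9, 98.9 and 123 in WT ns and 369, 396 and 592 in WT LPS. The groups did not overlap. The log2 change was 2.13 ± 0.15 (adjusted p = 2.80e-11) in KO and 2.10 ± 0.17 (adjusted p = 9.89e-10) in WT, and the difference between these changes was 0.03 ± 0.22, with a 95% interval from -0.39 to 0.45.

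C5ar2, a receptor that binds C5a without coupling to G proteins and has been described as a modulator of C5ar1, was not called with it. Its level was 29.9, 126 and 144 CPM in KO ns and 20.7, 95.9 and 122 in KO LPS, against 100, 121 and 136 in WT ns and 15.2, 73.9 and 95.2 in WT LPS. The WT groups did not overlap, yet the log2 change of -0.87 ± 0.34 missed the threshold (adjusted p = 0.0522), as did -0.33 ± 0.29 in KO (adjusted p = 0.453). DESeq2 called the WT change (adjusted p = 0.0273), as did edgeR with RLE scaling (adjusted p = 0.0378). The lowest values in KO ns, KO LPS and WT LPS came from libraries high in mitochondrial counts. Without those 4 it was called lower in both genotypes, at -0.36 ± 0.12 (adjusted p = 0.0123) in KO and -0.65 ± 0.13 (adjusted p = 0.00017) in WT.

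C3ar1, the receptor for the complement fragment C3a, rose in both genotypes and varied widely between WT LPS libraries. It was at 248, 301 and 782 CPM in KO ns and 662, 793 and 1708 in KO LPS, where the highest resting library, KO ns 6, overlapped the treated range. In WT it was at 241, 282 and 311 in WT ns and 647, 1110 and 6244 in WT LPS. The log2 change was 1.29 ± 0.32 (adjusted p = 0.00308) in KO, and the WT change was 6.05-fold (adjusted p = 1.31e-05). The highest WT value came from WT LPS 7, the WT library high in mitochondrial counts. Without the 4 such libraries the KO groups no longer overlapped and the changes were 1.46 ± 0.13 in KO and 1.87 ± 0.14 in WT, so that the WT change became 3.64-fold.

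Fpr1, the high-affinity formyl peptide receptor, rose from the lowest resting level per kilobase of all 10. It was at 1.72, 5.12 and 31.4 CPM in KO ns and 38.3, 54.9 and 127 in KO LPS, and at 2.41, 8.23 and 37.2 in WT ns and 58.4, 160 and 987 in WT LPS. Treated and resting libraries did not overlap in either genotype. The log2 change was 2.54 ± 0.65 (adjusted p = 0.00383) in KO and 4.12 ± 0.80 (adjusted p = 0.000302) in WT. Without the 4 libraries the WT change was 3.25 ± 0.71, a fold of 9.51 in place of 17.4, and the KO change 2.83 ± 0.69.

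Fpr2, which also binds annexin A1 and a range of peptides and lipids, was called higher in WT. It was at 2.36, 6.27 and 65.6 CPM in KO ns and 39.1, 54.9 and 107 in KO LPS, and at 3.11, 12.0 and 63.2 in WT ns and 65.6, 102 and 543 in WT LPS. KO ns 6 lay inside the KO LPS range, and the WT groups did not overlap. The WT change of 2.65 ± 0.81 passed the test (adjusted p = 0.0141) and the KO change of 1.67 ± 0.68 did not (adjusted p = 0.0663, or 0.0483 with DESeq2). The difference between these changes was not called (-0.98 ± 1.01, adjusted p = 0.835). Without the 4 libraries both were called, at 2.14 ± 0.74 (adjusted p = 0.0196) in KO and 1.94 ± 0.75 (adjusted p = 0.0344) in WT, the WT fold going from 6.26 to 3.83.

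S1pr1, the sphingosine 1-phosphate receptor that guides lymphocyte egress and is present on many brain cells, fell furthest. It was at 56.1, 69.5 and 96.4 CPM in KO ns and 6.66, 7.63 and 11.6 in KO LPS, and at 38.5, 63.1 and 72.7 in WT ns and 1.89, 3.74 and 7.60 in WT LPS. Resting and treated libraries did not overlap in either genotype. The log2 change was -3.11 ± 0.22 (adjusted p = 3.77e-11) in KO and -3.76 ± 0.26 (adjusted p = 1.01e-10) in WT. In bulk RNA, fewer cells of a type and less RNA per cell cannot be told apart, and S1pr1 is also an endothelial gene. The 6 endothelial markers summed to 60.4 to 100 CPM in KO ns and 23.6 to 58.8 in KO LPS, and to 48.6 to 60.2 in WT ns and 15.2 to 38.2 in WT LPS. B cell markers summed to 326 to 553 CPM in KO ns and 124 to 222 in KO LPS. In WT their sum was 422 to 528 in ns and 86.7 to 174 under LPS. The median sum of T and NK cell markers was 14.8 CPM in KO ns, 4.59 in KO LPS, 24.3 in WT ns and 9.5 in WT LPS. These sums rest on few genes. Of the 6 B cell markers, 2 had a median of 1 CPM or more in each of the 4 groups, as had 2 of the 6 T and NK cell markers. Of the 6 endothelial markers, 3 did in KO ns, KO LPS and WT ns and 2 in WT LPS. The part of these cells in the result was not tested.

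Ptafr, the receptor for platelet-activating factor, fell by less. It was at 135, 200 and 240 CPM in KO ns and 80.9, 118 and 148 in KO LPS, and at 171, 213 and 247 in WT ns and 101, 109 and 160 in WT LPS. The KO groups overlapped through KO ns 6 and the WT groups did not overlap. The log2 change was -0.82 ± 0.15 (adjusted p = 0.000105) in KO and -0.77 ± 0.17 (adjusted p = 0.00111) in WT.

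Cmklr1, the chemerin receptor, and Gpr183, the oxysterol receptor also called EBI2, were not called in either genotype. Cmklr1 was at 69.5, 301 and 382 CPM in KO ns and 51.9, 445 and 529 in KO LPS, and at 215, 258 and 515 in WT ns and 136, 410 and 506 in WT LPS. Its log2 changes were 0.53 ± 0.33 (adjusted p = 0.244) in KO and 0.36 ± 0.38 (adjusted p = 0.503) in WT. Its lowest values in KO ns, KO LPS and WT LPS all came from the 4 libraries high in mitochondrial counts, and without those it was called higher, at 0.45 ± 0.16 (adjusted p = 0.0183) and 0.53 ± 0.17 (adjusted p = 0.0112). Gpr183 was at 120, 135 and 242 CPM in KO ns and 111, 125 and 242 in KO LPS, and at 132, 159 and 181 in WT ns and 141, 159 and 400 in WT LPS. Its changes of -0.18 ± 0.20 (95% interval -0.58 to 0.21) in KO and 0.26 ± 0.23 (-0.20 to 0.72) in WT were not called, and without the 4 libraries it was the sole receptor of the 10 called in neither genotype (-0.11 ± 0.07 and -0.05 ± 0.08).

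**Figure D2:**
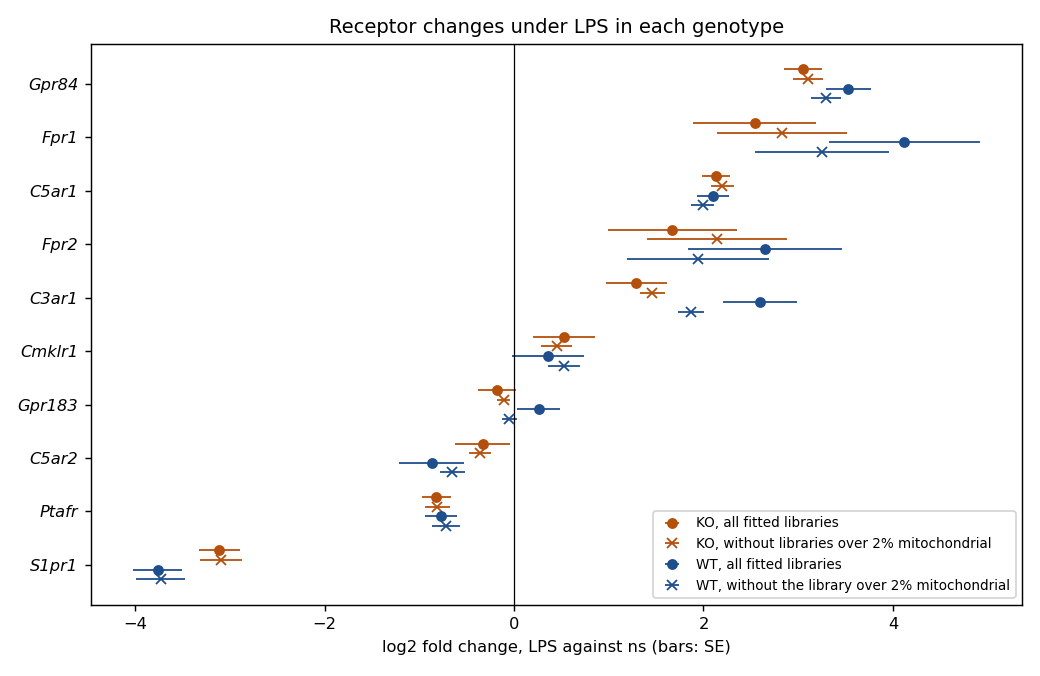
Log2 fold change of each receptor under LPS in KO (orange) and WT (blue), with bars of 1 SE; circles are all fitted libraries and crosses leave out the 4 libraries over 2% mitochondrial counts. Gpr84, Fpr1, Fpr2, C5ar1 and C3ar1 lie right of 0 and S1pr1, Ptafr and C5ar2 left of it in both genotypes, and the crosses have shorter bars for C3ar1, Cmklr1, C5ar2 and Gpr183.

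Leaving out those 4 libraries, a choice made after their values were seen, gave 6 receptors higher and 3 lower in each genotype. The share of all genes called rose as well, to 27.1% for rises and 27.2% for falls in KO and to 26.3% and 27.5% in WT. The library names fall into 2 sets that each hold all 4 groups. In the first set alone, where 43.9% of all genes were called in KO and 41.4% in WT, S1pr1, Ptafr, Gpr84, C5ar1 and C3ar1 were called in both genotypes, Fpr1 and C5ar2 in WT, Cmklr1 in KO and Fpr2 in neither (Fpr1 in KO, adjusted p = 0.0605). In the second set, which holds all 4 of the libraries high in mitochondrial counts, 4.74% of all genes were called in KO and 3.54% in WT. There Gpr84 (3.03 ± 0.38 in KO), C5ar1 (2.03 ± 0.28) and S1pr1 (-3.20 ± 0.32) were called in both and C3ar1 in WT. Ptafr (-0.76 ± 0.28, adjusted p = 0.159) and C3ar1 (1.14 ± 0.58, adjusted p = 0.341) missed the threshold there in KO. The direction of all 7 receptors called in WT was the same in each set.

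For Gpr84, S1pr1, C5ar1 and Fpr1 the WT libraries numbered 2 took the opposite side. Under the WT ns label (replicates 1 and 5) Gpr84 was at 1025 and 851 CPM, and under the WT LPS label (replicates 1 and 6) at 90.4 and 80.0. S1pr1 was at 4.29 and 6.47 CPM in the former and at 70.7 and 55.6 in the latter. C5ar1 was at 488 and 377 CPM in the former and at 124 and 89.8 in the latter. Fpr1 was at 86.8 and 191 against 18.7 and 24.8. For these 4 genes each library numbered 2 lay outside the range of the fitted libraries of its label. The other receptors called in WT did not follow in every library. WT LPS 6 had C3ar1 at 774 CPM and Ptafr at 104, inside the fitted WT LPS ranges of 647 to 6244 and 101 to 160. WT ns 1 had Fpr2 at 56.4 CPM, inside the fitted WT ns range of 3.11 to 63.2. With all libraries in the group of their label, 0 of the 10 receptors and 0.0% of 15880 genes were called in WT by edgeR, with 8 receptors and 3675 genes at an unadjusted p under 0.05. The Gpr84 change there was 1.58 ± 0.55 (adjusted p = 0.124) and that of S1pr1 -1.27 ± 0.60 (adjusted p = 0.202). The KO comparison still held its 6 calls. Every WT statement above therefore rests on leaving these libraries out.

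The formyl peptide receptors are abundant in neutrophils, and resting levels of both went with neutrophil markers. The sum of 9 such markers, S100a8 and S100a9 among them, ran from 295 to 9399 CPM in KO ns, and all 9 had counts in every group. Over the 8 KO ns libraries the log2 level of Fpr1 correlated with the log2 sum at r = 0.972 (rho = 0.905, exact permutation p = 0.000397 for r and 0.00456 for rho; adjusted over 30 relations, 0.00238 and 0.0228). For Fpr2 r was 0.984 (rho = 0.929, exact permutation p = 0.000174 and 0.00223; adjusted, 0.0013 and 0.0135). Without the 2 libraries farthest from the median sum, r was 0.937 and 0.975. No such relation was found over the 8 KO LPS libraries, where the sum had a narrower range, 1023 to 4171 CPM. There r was 0.442 for Fpr1 (exact permutation p = 0.271) and 0.444 for Fpr2 (exact permutation p = 0.275). Without the 2 farthest it was -0.429 and -0.510. The WT libraries of this experiment were not correlated in this way. At rest the monocyte sum rose with the neutrophil sum. In KO ns 6, 4 and 1 they were 1080, 638 and 695 CPM (monocyte) and 9399, 7561 and 6178 (neutrophil). In KO ns 2 and 7 they were 52.4 and 86.6 against 295 and 411. Only the neutrophil sum was correlated with the receptors, so these 2 cell types cannot be told apart here.

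The markers themselves were higher in median under LPS in KO. The neutrophil sum was 1023 to 4171 CPM in KO LPS, inside the KO ns range, with a median of 2191 against 916 in KO ns. In WT it was 1726 to 13039 under LPS against 330 to 17296 in ns, with medians of 2643 and 2617. The monocyte sum had medians of 334 in KO LPS and 138 in KO ns, and of 392 in WT LPS and 322 in WT ns, and its part in the result was not tested. Per 1000 CPM of neutrophil markers, Fpr1 was at 2.32 to 8.06 CPM in KO ns and 14.5 to 55.1 in KO LPS. In WT it was at 1.72 to 7.28 in ns and 16.2 to 113 under LPS. Fpr2 was at 4.10 to 9.22 in KO ns, 12.5 to 43.9 in KO LPS, 3.51 to 9.40 in WT ns and 18.3 to 67.3 in WT LPS. Neither ratio overlapped between ns and LPS in either genotype. Whether LPS changes the markers per neutrophil was not tested.

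**Figure D3:**
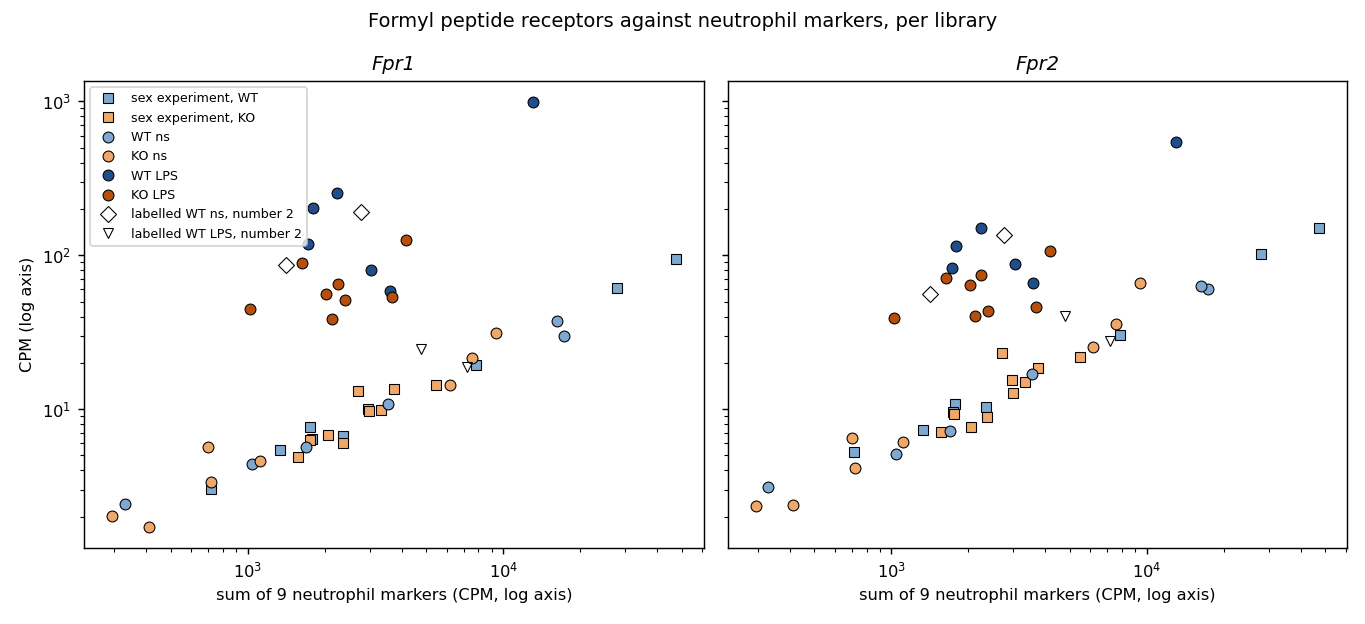
Fpr1 and Fpr2 against the sum of 9 neutrophil markers, one point per library or animal, in CPM on log axes. The ns libraries and the animals of the sex experiment lie along a rising band, and KO LPS and WT LPS lie above it. The libraries numbered 2 labelled WT ns (open diamonds) lie with the LPS libraries.

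Among the other receptors in KO LPS, Gpr183 had the closest relation to the neutrophil sum (r = 0.760, rho = 0.976, exact permutation p = 0.0224 and 0.000397; adjusted, 0.0747 and 0.00397), and without the 2 farthest libraries r was 0.924. In KO ns its r was 0.199 (exact permutation p = 0.632). The remaining 7 receptors had adjusted p-values of 0.226 or more for r in KO ns and KO LPS.

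None of the 10 receptors was called between genotypes in the LPS experiment by edgeR. In ns cells 0.0933% of genes were called in either direction, and 9.26% had an unadjusted p under 0.05. Of the receptors 1 did: C5ar1, lower in KO by 1.31-fold (-0.39 ± 0.15, adjusted p = 0.454). Under LPS 0.0871% of genes were called, and 6.3% of genes and 7 of the receptors had an unadjusted p under 0.05. S1pr1 had the smallest, with a level of 6.66 to 11.6 CPM in KO LPS and 1.89 to 7.60 in WT LPS, a log2 difference of 0.89 ± 0.23 (adjusted p = 0.204). DESeq2 called this 1 receptor (adjusted p = 0.0455) and 0 in ns. With all libraries in the group of their label the direction turned, to -1.23 ± 0.60 (adjusted p = 0.708). The libraries left out of WT LPS held S1pr1 at 70.7 and 55.6 CPM. The other 6 were lower in KO, among them Fpr1 (-2.03 ± 0.67, adjusted p = 0.494), C3ar1 (-0.95 ± 0.34, adjusted p = 0.575), Gpr84 (-0.49 ± 0.20, adjusted p = 0.677) and C5ar1 (-0.36 ± 0.15, adjusted p = 0.680). All 10 receptors overlapped in range between KO LPS and WT LPS.

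Most of these differences were smaller without the 4 libraries high in mitochondrial counts. The difference under LPS was then -1.33 ± 0.63 for Fpr1, -0.35 ± 0.13 for C3ar1 and -0.20 ± 0.15 for Gpr84, while S1pr1 stayed at 0.77 ± 0.23 (adjusted p = 0.184). Gpr183 then did not overlap between the genotypes, at 111 to 136 CPM in KO LPS and 141 to 170 in WT LPS, and remained uncalled (-0.34 ± 0.08, adjusted p = 0.0677). How many of all genes did not overlap in this way was not counted. In that fit 1813 of 16069 genes and 5 of the 10 receptors had an unadjusted p under 0.05 between the genotypes under LPS.

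The test of whether LPS acted differently in the 2 genotypes called 0.0% of 16075 genes and 0 receptors with edgeR, with 826 genes (5.14%) at an unadjusted p under 0.05 and 3 genes called by DESeq2, no receptor among them. The unadjusted p was under 0.05 for C3ar1 (-1.30 ± 0.49, 95% interval -2.27 to -0.34) and S1pr1 (0.64 ± 0.31, 0.03 to 1.25). For C3ar1 the difference shrank to -0.40 ± 0.19 without the 4 libraries. The interval for Gpr84 ran from -1.04 to 0.08. With all libraries in the group of their label the difference for S1pr1 turned to -1.85 ± 0.84 (adjusted p = 0.466) and that for Gpr84, -0.48 ± 0.29 without them, to 1.47 ± 0.77 (adjusted p = 0.513), while that for C3ar1 was 0.00 ± 0.64. The genotype comparisons, like the WT changes, rest on leaving those libraries out.

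**Figure D4:**
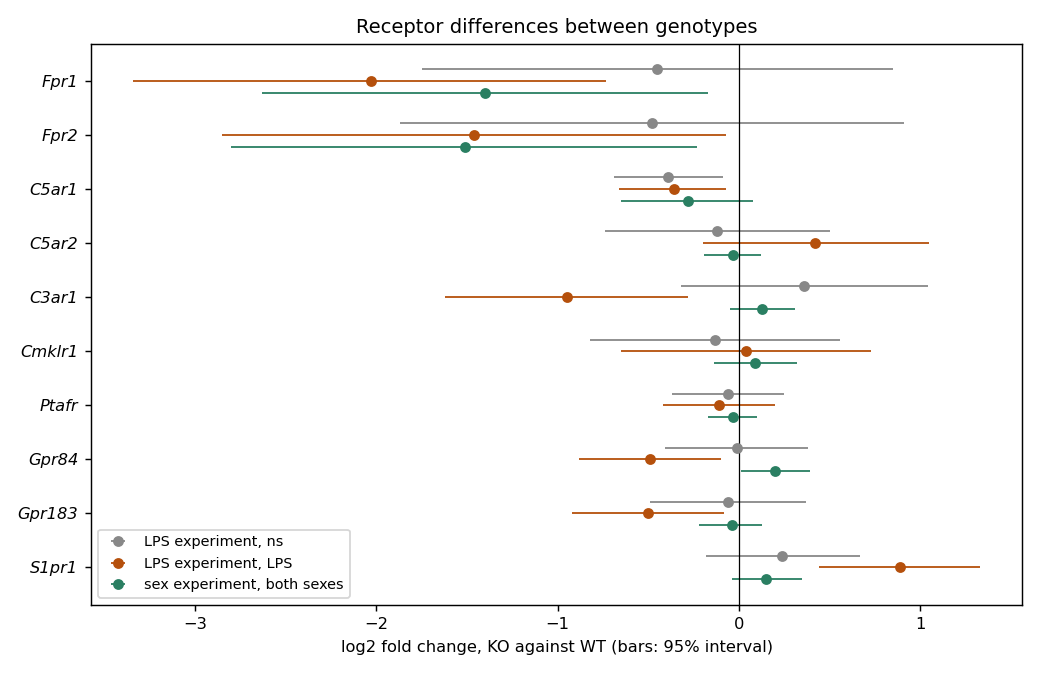
Log2 difference between KO and WT for each receptor in ns cells, in LPS cells and over both sexes of the sex experiment, with bars for the 95% interval. No difference passed the test, and the widest bars belong to Fpr1 and Fpr2.

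In the sex experiment none of the 10 receptors was called between KO and WT averaged over the sexes (0.546% of 31711 genes called), in males (0.00946%) or in females (0.274%). Nor was any called by sex in WT (0.0757%) or by the test of whether the genotype difference depended on sex (0.0% of genes called, 837 at an unadjusted p under 0.05). DESeq2 called 0 receptors in each of these. Unadjusted p-values under 0.05 numbered 2 in the averaged comparison, for Fpr1 and Fpr2 (8.63% of all genes), 1 between the sexes, for C5ar2 (7.49% of all genes), and 0 in the others. The averaged log2 differences of the other 8 ran from -0.28 ± 0.19 for C5ar1 to 0.20 ± 0.10 for Gpr84. The 95% interval for S1pr1 was -0.04 to 0.35 and that for Ptafr -0.17 to 0.10.

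Fpr1 was at 6.41, 7.70, 19.4 and 95.2 CPM in male WT and at 6.82, 9.71, 9.86, 13.1 and 13.6 in male KO. In females it was at 3.03, 5.39, 6.73 and 61.0 in WT and at 4.91, 6.01, 6.33, 9.97 and 14.3 in KO. One animal of each WT group was far above the rest, and the other WT animals lay among the KO animals. Fpr2 was highest in the same animals, at 149 CPM in male WT 5 and 103 in female WT 2, against 5.30 to 30.4 in the other 16. These 2 animals had neutrophil marker sums of 47315 and 27945 CPM, against 717 to 7825 elsewhere. Their monocyte marker sums stood out as well, at 3447 and 1911 CPM against 86.3 to 524 elsewhere, and the part of each cell type was not tested. The averaged difference was -1.40 ± 0.63 (adjusted p = 0.565) for Fpr1 and -1.51 ± 0.66 (adjusted p = 0.552) for Fpr2, and without both animals, a choice made after their values were seen, 0.32 ± 0.31 and 0.29 ± 0.35.

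Over the 18 animals, the log2 level of Fpr1 went with the neutrophil sum at r = 0.984 and rho = 0.926, and that of Fpr2 at r = 0.975 and rho = 0.915 (permutation p = 1e-05 for each, the smallest that 100000 resamples can give; adjusted, 0.0001 for r and 0.00015 for rho). Without the 2 farthest animals r was 0.942 and 0.908. Within the 8 WT animals r was 0.996 for Fpr1 and 0.997 for Fpr2, and within the 10 KO animals 0.880 and 0.824. C5ar1, which neutrophils also carry, went with the sum at r = 0.866 and rho = 0.692 (permutation p = 1e-05 and 0.00225; adjusted, 0.0001 and 0.0135), or 0.643 without the 2 farthest. C3ar1, Cmklr1 and S1pr1 fell as the sum rose, at r = -0.715, -0.727 and -0.741 (permutation p = 0.00573, 0.0019 and 0.00238; adjusted, 0.0215, 0.0095 and 0.0102). These 3 relations rested on the 2 animals: without them r was 0.281, -0.149 and -0.132, and rho over all 18 was -0.0217, -0.387 and -0.333 (permutation p = 0.935, 0.113 and 0.178). Per 1000 CPM of neutrophil markers, Fpr1 was at 2.01 to 4.86 CPM over all 18 animals.

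**Figure D5:**
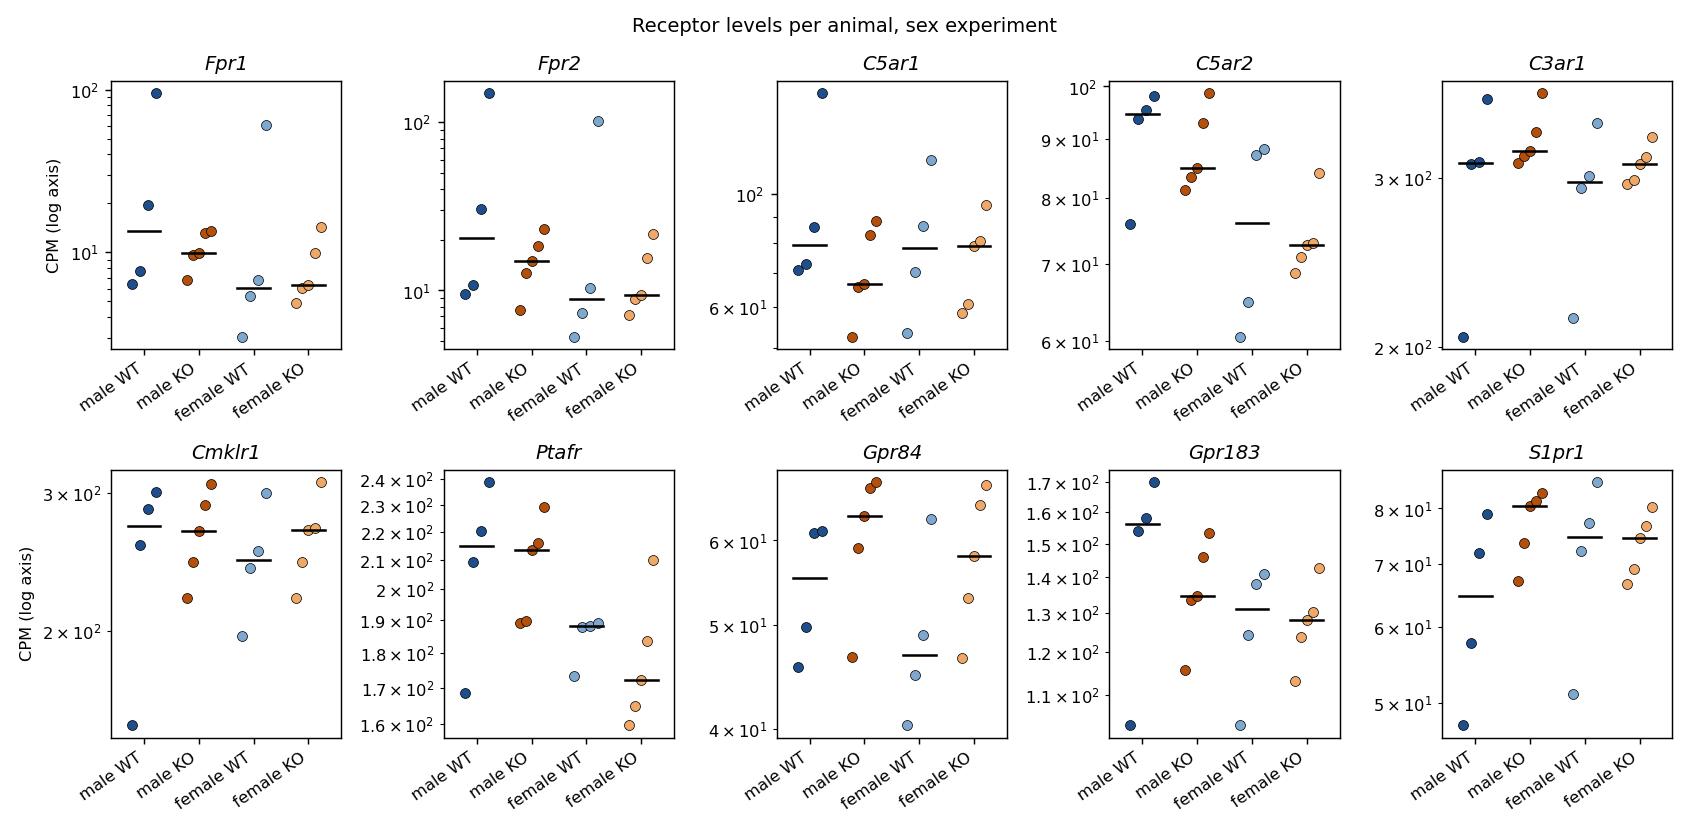
Levels of the 10 receptors in each animal of the sex experiment, in CPM on log axes, with the group median as a bar. The groups overlap for each receptor, and 1 male WT and 1 female WT animal stand above the rest for Fpr1 (95.2 and 61.0 CPM) and Fpr2.

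The groups of the sex experiment overlapped for the other receptors. Over its 18 animals C5ar1 ran from 52.5 to 157 CPM, with male WT 5 and female WT 2 highest, C3ar1 from 205 to 367, Cmklr1 from 152 to 310, Ptafr from 160 to 239, Gpr183 from 103 to 170, C5ar2 from 60.5 to 98.7, S1pr1 from 47.3 to 85.3 and Gpr84 from 40.3 to 68.1. Gene spans in that table include introns and overlapping genes can share reads: Gpr183 (chromosome 14, 122189743 to 122202605, minus strand, GRCm39) overlaps Ubac2 on the opposite strand, Cmklr1 (chromosome 5, 113750415 to 113792971) overlaps Gm15736 and Gm52823, and C5ar2 (chromosome 7, 15968512 to 15978079) overlaps Gm26473, so these 3 are less certain. C5ar1 lies next to C5ar2 on chromosome 7 (15980668 to 15993465), and Fpr1 and Fpr2 are neighbours on chromosome 17 (18096733 to 18104201 and 18108086 to 18114214), and neither pair overlaps. Fpr1 and Fpr2 are close paralogs, whose shared stretches could split reads between them.

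Related receptors for chemerin, leukotrienes, prostaglandins, lysolipids and metabolites formed a list of 28, of which 23 were tested in the LPS experiment. Of these, 5 rose and 4 fell with LPS in KO, and 5 rose and 5 fell in WT, with median log2 changes of 0.06 and -0.27 (beside -0.01 over all genes). In KO that was 21.7% rising and 17.4% falling, beside 13.7% and 15.3% of all genes, and in WT 21.7% each way, beside 15.4% and 15.6%. Hcar2, a receptor for nicotinic acid and ketone bodies, rose most, from 4.46 to 14.0 CPM in KO ns to 142 to 358 in KO LPS (4.58 ± 0.38, adjusted p = 7.34e-10). Gpr18 (3.98 ± 0.51) and the prostaglandin E receptor Ptger4 (2.47 ± 0.28) followed. The largest falls were in Gpr34, a lysophosphatidylserine receptor rich in microglia (-3.57 ± 0.50, adjusted p = 3.49e-06), in the prostaglandin E receptor Ptger3 (-2.79 ± 0.30) and in S1pr5, a relative of S1pr1 (-1.77 ± 0.53, adjusted p = 0.0129). All 6 were also called in the same direction in WT. Gpr34 reached 10782 CPM in 1 KO ns library, against a group median of 1654.

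Of 18 genes that make or break down the ligands, 14 were tested, and 4 rose and 1 fell in KO against 2 and 1 in WT. The shares were 28.6% and 7.14% in KO, beside 13.7% and 15.3% of all genes. In WT they were 14.3% and 7.14%, both below the 15.4% and 15.6% of all genes. The median log2 change was 0.42 in KO and 0.23 in WT. Ch25h, which makes the precursor of the Gpr183 oxysterol ligand, rose from 0.693 to 4.00 CPM in KO ns to 2.94 to 62.4 in KO LPS (2.97 ± 0.59, adjusted p = 0.000343) and Cyp27a1, another sterol hydroxylase, fell (-0.82 ± 0.25, adjusted p = 0.0129). Pla2g7, which hydrolyses platelet-activating factor, rose (1.83 ± 0.17, adjusted p = 8.16e-09). These 3 were called in WT as well, at 4.25 ± 0.72, -1.35 ± 0.29 and 2.01 ± 0.20. C3, the source of C3a, passed the test in KO (1.70 ± 0.65, adjusted p = 0.0497) and not in WT (-0.32 ± 0.71, adjusted p = 0.773), and the difference between the genotypes was not called.

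Of 16 genes of G-protein signalling and receptor desensitisation, all tested, 2 rose and 2 fell in KO and 1 rose and 1 fell in WT, with medians of 0.09 and -0.13. These shares, 12.5% each way in KO and 6.25% in WT, were below those over all genes, so the counts show nothing particular to the list. Pik3r6 and Pik3r5, the regulatory subunits of the G-protein-driven lipid kinase PI3K gamma, rose in KO (1.31 ± 0.25 and 1.09 ± 0.36; adjusted p = 0.000233 and 0.0252), and Pik3r6 in WT too (1.17 ± 0.29, adjusted p = 0.00294). Its catalytic subunit Pik3cg fell slightly in KO (-0.37 ± 0.14, adjusted p = 0.0448), as did Gng2, a G-protein gamma subunit (-0.54 ± 0.14, adjusted p = 0.00329). Between genotypes 0 genes of the 3 lists were called in the LPS experiment. In the sex experiment 1 was, averaged over the sexes: Ccrl2, an atypical receptor that binds chemerin, was higher in KO (0.65 ± 0.13, adjusted p = 0.0223), at 31.3 to 68.1 CPM in KO and 21.5 to 41.3 in WT animals.

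Across the 28 fitted libraries, after each group's mean was subtracted, the gene whose log2 CPM was most like that of Fpr1 was Fpr2 (r = 0.974), and that most like Fpr2 was Mcemp1 (r = 0.980). Both pairings were also first without the 4 libraries high in mitochondrial counts (r = 0.972 and 0.981). For the other 8 the closest gene was another one without those libraries. Cmklr1 was nearest to Mavs (r = 0.983) with them and to Os9 (r = 0.945) without them, and C3ar1 to Psmd12 (r = 0.966) and M6pr (r = 0.906). Gpr84 was nearest to G3bp1 (r = 0.861) and to Ell2 (r = 0.841), and S1pr1 to Entpd1 (r = 0.819) and Tspan13 (r = 0.864). Libraries of a group differed in quality, with mitochondrial counts of 1.22% to 8.55% in KO ns, so these are descriptions.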

How the data were processed

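RNA from CD11b-positive mouse brain cells was sequenced. The authors deposited raw counts per gene in 2 tables, per the file headers. STAR 2.6.1, featureCounts and the build GRCm39 are named in the submitters' processing notes, without strand settings. In each library 78.4% to 87.7% of counts from 1 to 50 were even in the sex table, against 41.0% to 46.2% in the LPS table, so the tables were fitted separately. Every column matched a sample, and 6 repeat libraries were not analysed here.

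Counts were tested with edgeR 4.0.16 (quasi-likelihood F test, robust, filterByExpr, TMM; limma 3.58.1, R 4.3.3), with library set as a covariate in the LPS experiment and Benjamini-Hochberg adjustment over all genes at 0.05. DESeq2 1.42.0, RLE scaling, no filter, no covariate, each library set alone, a replicate block, other treatments of the doubtful libraries and, in the sex experiment, fits of only the groups compared and without each animal were alternatives. The test was also run on simulated counts, drawn with the same spread for every gene and without libraries of low quality. That run cannot show how the test handles the libraries high in mitochondrial counts. WT LPS 8 and WT LPS 9 had a chi-square per degree of freedom of 1.86 between their counts, against 8.32 or more in other pairs, and were summed. Same-numbered samples had deviations correlated at a mean of 0.301 in the LPS experiment, against 0.0619 for other pairs, with a lowest same-numbered pair of -0.442. Whether the numbers pair samples is not settled by this. The main fit did not pair them, and the fit with a replicate block is given further below. Exon lengths came from GENCODE (GRCm38) and promoters from RefSeq (GRCm38.p6).

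Named were the 10 receptors, for each the gene most like it in log2 CPM, and per list the 3 highest and 3 lowest called changes in KO LPS against KO ns plus any gene called between genotypes. The receptors and lists were chosen with earlier results of these data known.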

Additional observations from a re-analysis of the deposited data

Results flagged for a closer look

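Within groups of 4 to 8 libraries or animals, 80 combinations of receptor and group were screened for a highest or lowest sample far from the rest (Dixon's test at 95%), and 18 were marked. Chance marks about 1 in 20. Of the 18, 11 lay in the 4 fitted libraries high in mitochondrial counts and 6 in the sex experiment.

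WT LPS 7 stood above the other WT LPS libraries for 5 receptors. C3ar1 was at 6244 CPM there (next highest 1378), C5ar1 at 592 (446), Fpr1 at 987 (254), Fpr2 at 543 (151) and Gpr183 at 400 (170). KO LPS 5 was highest of its group for C3ar1 at 1708 CPM (next 916) and Gpr183 at 242 (136), and lowest for C5ar2 at 20.7 (next lowest 75.5) and Cmklr1 at 51.9 (346). KO ns 6 was lowest for C5ar2 at 29.9 CPM (98.5) and Ptafr at 135 (192). Outside those libraries, Cmklr1 reached 515 CPM in WT ns 4, the most deeply sequenced library of the LPS experiment.

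In the sex experiment, male WT 5 stood above its group for Fpr1 at 95.2 CPM (next 19.4) and Fpr2 at 149 (30.4). Female WT 2 was highest for Fpr1 at 61.0 CPM (6.73) and Fpr2 at 103 (10.4), and lowest for Ptafr at 173 (188). C5ar2 was highest in female KO 3, at 84.1 CPM (73.1).

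The libraries labelled WT ns that were kept out of the fit held levels above every fitted WT ns library. Replicates 1 and 5 had Gpr84 at 1025 and 851 CPM (highest fitted 116), C5ar1 at 488 and 377 (123), C3ar1 at 1016 and 1926 (311) and Fpr1 at 86.8 and 191 (37.2). Replicate 5 alone exceeded the fitted range for Fpr2, at 136 CPM (63.2), and Gpr183, at 254 (181).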

How the results depend on the processing

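For receptors in comparisons where at least 1 setting called them, there were 228 values under alternatives. Of these, 197 kept their direction and side of the threshold, 15 lost the call and 15 gained one. The remaining 1 reversed: the S1pr1 difference between KO and WT at LPS was -1.23 with all libraries in the group of their label. Pairs of receptor and comparison never called were not counted, and some changed sign. The difference in LPS change between genotypes ran from -0.71 to 1.47 for Gpr84 and from -1.85 to 0.84 for S1pr1 over the alternatives. The count of receptors called for LPS in WT fell from 7 to 0 with all libraries in the group of their label and to 4 in library set 2 alone. In KO it fell from 6 to 3 in set 2 alone. Calls over all genes fell too, to 785 in KO and 585 in WT of 16546 genes, and the cause was not tested. For KO against WT at LPS, DESeq2 called 1 receptor (S1pr1) in place of 0. Over all genes DESeq2 called 36 higher and 16 lower in KO at ns, against 8 and 7 with edgeR, and 29 and 26 at LPS against 3 and 11. The WT change of C5ar2 passed the threshold under 7 of its 12 alternatives. Without the 4 libraries high in mitochondrial counts, a choice made after seeing the data, 9 receptors were called in each genotype. In the sex experiment 0 receptors were called in any comparison without each animal in turn.

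With the library numbers as a replicate block, 7 receptors were called for LPS in KO (adding Fpr2, adjusted p = 0.0289 by edgeR) and 8 in WT (adding C5ar2, adjusted p = 0.0223), and 0 in every other comparison. Calls over all genes rose as well, from 2208 higher and 2454 lower to 2612 and 2877 in KO, and from 2479 and 2513 to 2655 and 3046 in WT. Of 35 same-numbered pairs in the LPS experiment, 23 correlated above 0.1, and of 24 in the sex experiment 18 did, with mean r of 0.301 and 0.23 against 0.0619 and -0.0428 for other pairs. Depth limits Fpr1 most, with 44 counts in its lowest library. The sex experiment is limited by groups of 4 and 5 animals.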
